A study of Homo sapiens with 6 samples.

Results

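Aminoacyl-tRNA synthetases are the enzymes that load each transfer RNA with its amino acid, and 35 of their genes were followed here among 18244 genes measured on arrays. The genes were taken by name. They were 19 cytosolic enzymes or subunits (AARS1, CARS1, EPRS1, FARSA, FARSB, GARS1, HARS1, IARS1, KARS1, LARS1, MARS1, NARS1, QARS1, RARS1, SARS1, TARS1, VARS1, WARS1 and YARS1) and 16 mitochondrial ones (AARS2, CARS2, EARS2, FARS2, HARS2, IARS2, LARS2, MARS2, NARS2, PARS2, RARS2, SARS2, TARS2, VARS2, WARS2 and YARS2). Each gene was read from one probe set, the brightest on average among those assigned to that gene alone, and all 35 genes had one. The first letter of a symbol is the one-letter code of the amino acid that the enzyme loads.

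The cells were L428, an established human Hodgkin lymphoma line. One group of 3 arrays came from L428 nucleofected with an siRNA against BATF3, and the other group of 3 from L428 nucleofected with a control siRNA. An amount of 3 µg siRNA is stated, and both groups were grown for 48 hours in the same serum-containing medium, so they share the cell line, the nucleofection and the presence of an siRNA. BATF3, which encodes a leucine zipper transcription factor, was targeted with only one named siRNA reagent, and the replicates are not said to come from separate cultures, so p-values measure only the spread between these arrays, which may be technical.

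Cytosolic synthetases charge the tRNAs that serve the main ribosomes, and several of them sit together with scaffold proteins in a multi-synthetase complex. Mitochondrial synthetases are made from separate nuclear genes and charge the tRNAs encoded in the mitochondrial genome, while GARS1 and KARS1 each supply both compartments from one gene. When charged tRNA runs short, the kinase GCN2 (EIF2AK4) phosphorylates the translation factor eIF2, which lets the transcription factor ATF4 be made. ATF4 is known to raise many cytosolic synthetases together with genes of amino acid synthesis and import, through a DNA element at which it pairs with a C/EBP protein.

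That element was looked up in promoter sequences of RefSeq (GRCh38.p14), which cover 250 bases before a gene's start and 50 after it. The letters searched were TGATGCAA on both strands. Of the 19 cytosolic genes 16 had a promoter in the table, and 6 of these 16 (37.5%) held the letters. Of the 16 mitochondrial genes 14 had a promoter, and 0 of these 14 held them. Of all 27305 genes with a promoter there, the letters were found in 295 (1.08%). Other genes of the ATF4 response, listed below, held them in 5 of 28 promoters (17.9%), so the letters are not particular to synthetases. LARS1, VARS1, YARS1, AARS2 and VARS2 were not matched. The 6 sites are shown because they are all the matches to these letters among the synthetase promoters searched. Each is given 5′ to 3′ along the gene, with the element in capitals, where TTGCATCA is TGATGCAA read from the other strand.
AARS1: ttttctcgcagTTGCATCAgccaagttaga
CARS1: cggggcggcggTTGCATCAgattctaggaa
IARS1: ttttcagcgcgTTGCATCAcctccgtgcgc
MARS1: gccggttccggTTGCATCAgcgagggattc
NARS1: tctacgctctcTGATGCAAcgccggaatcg
TARS1: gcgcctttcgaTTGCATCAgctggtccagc

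With the start counted as base 0, the element of AARS1 ran from base −187 to −180 (chr16:70289675-70289704 for the printed bases, minus strand). The other 5 lay close to the start, so their printed bases run across it or lie just beside it. The element of CARS1 ran from −2 to 5 (chr11:3057407-3057436, minus strand) and that of IARS1 from −13 to −6 (chr9:92293692-92293721, minus strand). MARS1 had it from −4 to 3 (chr12:57488053-57488082, plus strand) and TARS1 from 2 to 9 (chr5:33440956-33440985, plus strand). NARS1 was the single gene with the letters in the forward direction, from 14 to 21 (chr18:57621804-57621833, minus strand). With one base left free (TGATGNAA, which includes the first motif) GARS1 and, among mitochondrial genes, YARS2 were added, giving 7 of 16 (43.8%) and 1 of 14 (7.14%) against 4.46% of all genes. The other ATF4 response genes held this looser form in 9 of 28 (32.1%). The AP-1 letters TGACTCA, the kind of site that BATF and JUN proteins share, were found for 0 of the 30 synthetase genes with a promoter. They were found for 6.05% of all genes with a promoter and for 3 of the 28 other ATF4 response genes (10.7%). With so few synthetase genes and so low a share over all genes, this difference was not tested. A match describes letters in this window, and a missing match says nothing about a factor elsewhere.

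BATF3 itself was lower in all 3 BATF3 siRNA arrays, at 10.87, 10.76 and 10.69, than in the 3 control arrays, at 11.89, 12.09 and 11.94 (log2 levels). The difference was −1.20 (SE 0.095; limma adjusted p = 0.00673). In the whole comparison 3 of 18244 genes passed an adjusted p of 0.05 (0.0164%), with MYO10 higher and BATF3 and CD244 lower, 1304 had an unadjusted p under 0.05 (7.15%), and 2215 had arrays of the 2 siRNAs that did not overlap (12.1%). Background probe sets with many G or C bases, which are designed to match no transcript, read 5.92 and 5.98 in BATF3 siRNA replicates 2 and 3 and 6.46 to 6.49 in the other 4 arrays. The highest background probe set of each array read 6.68 to 7.32. The cell line's markers were mostly well above this: CCL17, TNFRSF8 (CD30), IRF4, TRAF1 and FUT4 lay above it in all 6 arrays, as did PAX5 and CD79B, while the B cell marker MS4A1 (CD20) lay below it in all 6. TRAF1 and MS4A1 had the smallest p of these markers, with differences of +0.21 and +0.19 and limma adjusted p of 0.648 and 0.770. Of 18 markers of T and NK cells, myeloid cells, stroma and epithelium, CD68 alone lay above the highest background in all 6 arrays, at 8.55, 8.72 and 8.43 after BATF3 siRNA and 7.92, 8.48 and 7.90 after control siRNA (difference +0.47; limma adjusted p = 0.593). The part of these other cells' markers in the results was not tested.

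No synthetase passed the test after BATF3 siRNA. Of the 35 genes 0 were called higher and 0 lower at an adjusted p of 0.05 in limma, where 0.00548% and 0.011% of all genes were. Likewise 0 had an unadjusted p under 0.05, against 3.73% of all genes higher and 3.42% lower. The smallest adjusted p was 0.733, for IARS1. The arrays of the 2 siRNAs did not overlap for 4 of the 35 genes (11.4%), all 4 higher after BATF3 siRNA, against 6.36% of all genes higher and 5.78% lower. The 95% confidence intervals of all 35 differences held 0, and their outer limits were a ratio of 0.702 (VARS1) and 1.40 (MARS2). The median size of a difference, without its sign, was 0.056 log2 units for the 35 genes and 0.085 for all genes. These sets are not alike in level. The highest background was exceeded in all 6 arrays by 32 of the 35 genes and by 7806 of the 18244. The median SE was 0.097 for the 35 genes and 0.107 for all genes.

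**Figure D1:**
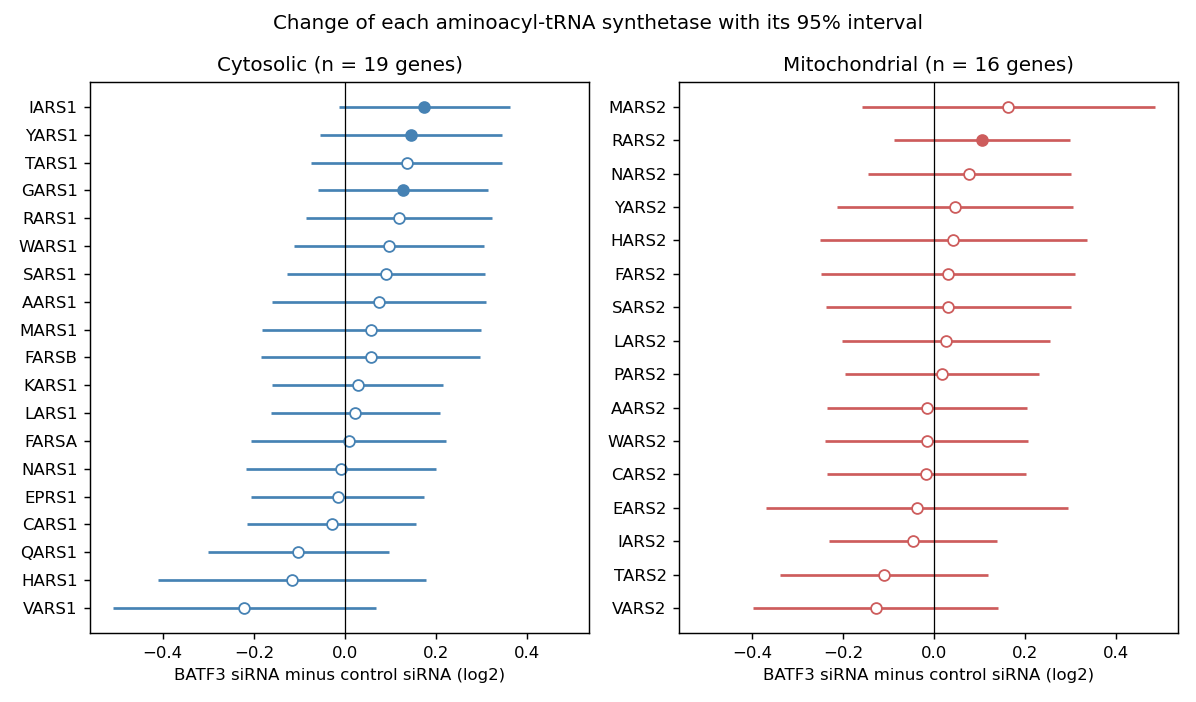
Each point is the log2 difference (BATF3 siRNA minus control siRNA, 3 arrays each) of one synthetase, cytosolic at left and mitochondrial at right, and each line its 95% confidence interval from limma. Filled points are the 4 genes whose arrays did not overlap between siRNAs (IARS1, YARS1, GARS1 and RARS2); the intervals of all 35 genes cross 0.

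The cytosolic enzymes had 13 positive and 6 negative differences, or 68.4% positive where 49% of all genes were. Their median difference was +0.056, their range −0.22 to +0.17, and the median over all genes −0.0027. Single arrays weighed on this median, which was 0.0052 without control siRNA replicate 1, 0.026 without BATF3 siRNA replicate 1, 0.035 without BATF3 siRNA replicate 2 and 0.11 without control siRNA replicate 2. IARS1, the isoleucine enzyme of the multi-synthetase complex, read 11.07, 11.18 and 11.11 after BATF3 siRNA and 10.97, 10.94 and 10.93 after control siRNA. All 3 BATF3 siRNA arrays were above all 3 control arrays, and the difference was +0.17 (SE 0.083, 95% interval −0.014 to 0.36; limma adjusted p = 0.733). Without any 1 array the difference lay between 0.14 and 0.20.

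GARS1, which charges glycine tRNA in both compartments, read 11.86, 11.79 and 11.81 after BATF3 siRNA and 11.66, 11.74 and 11.68 after control siRNA. The groups did not overlap here either, with a difference of +0.13 (SE 0.083; limma adjusted p = 0.816). YARS1, the tyrosine enzyme, read 9.94, 9.81 and 9.76 against 9.67, 9.68 and 9.74, a difference of +0.14 (SE 0.089; limma adjusted p = 0.810). Its lowest BATF3 siRNA array was only just above its highest control array.

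TARS1, the threonine enzyme, whose start holds the element shown above, read 10.95, 10.99 and 10.85 after BATF3 siRNA. Control siRNA replicate 2 stood at 10.91, inside that range, and the other controls at 10.72 and 10.75. The difference was +0.14 (SE 0.093; limma adjusted p = 0.833). RARS1, the arginine enzyme of the complex, read 10.27, 10.39 and 10.45 against 10.21, 10.32 and 10.22, with a difference of +0.12 (limma adjusted p = 0.845) and groups that overlapped through control siRNA replicate 2.

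VARS1, the valine enzyme, was the cytosolic member furthest below 0. It read 9.90, 10.19 and 9.96 after BATF3 siRNA and 10.01, 10.44 and 10.27 after control siRNA. The groups overlapped, since control siRNA replicate 1 lay below BATF3 siRNA replicate 2, and the difference was −0.22 (SE 0.13, 95% interval −0.51 to 0.067; limma adjusted p = 0.803). Without any 1 array it lay between −0.34 and −0.12.

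**Figure D2:**
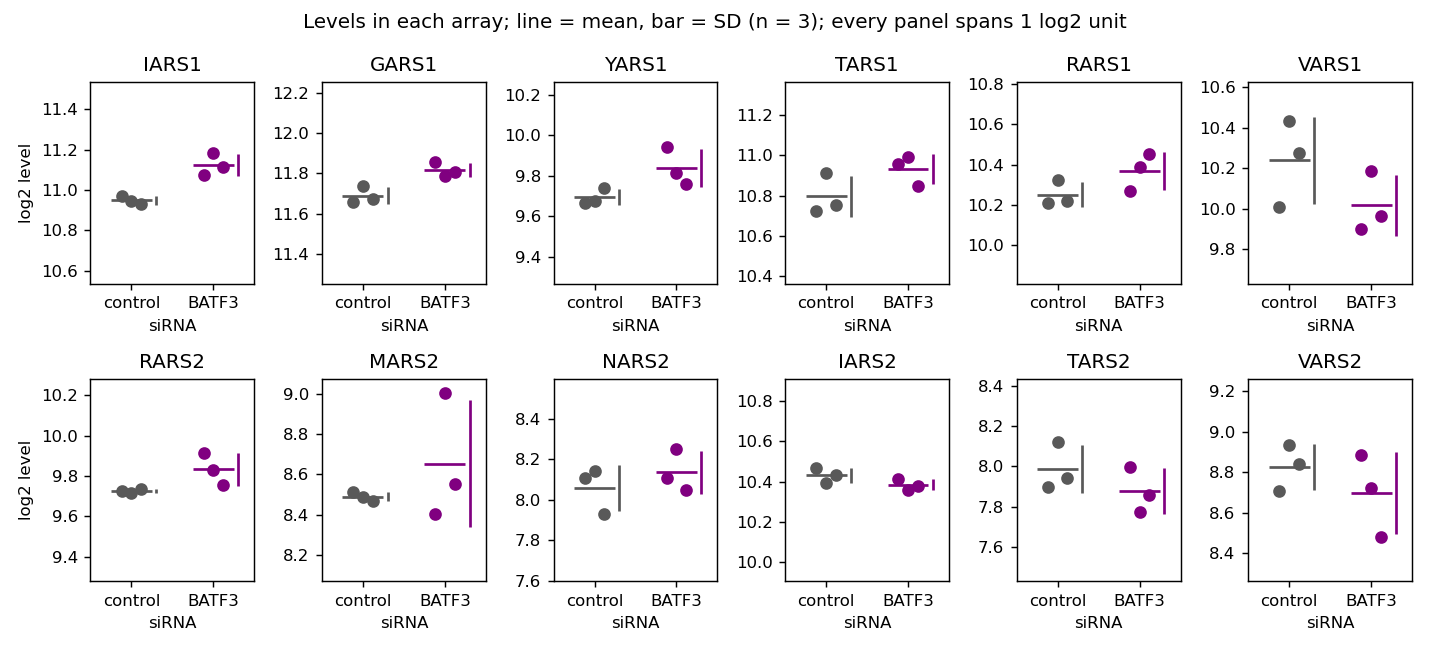
Log2 levels in each array of the 6 cytosolic (top) and 6 mitochondrial (bottom) synthetases with the smallest p, with control siRNA in grey and BATF3 siRNA in purple; horizontal lines are means and vertical bars the SD of 3 arrays. Each panel has its own level axis of 1 log2 unit, since probe sets of different genes cannot be compared in level. The groups are apart for IARS1, GARS1, YARS1 and RARS2, and a single high array sets the mean of MARS2.

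The remaining cytosolic members lay between −0.12 and +0.10 in difference. WARS1, the tryptophan enzyme known to be induced by interferon gamma, stood at +0.096, SARS1 at +0.090, AARS1 at +0.075, MARS1 at +0.058 and FARSB at +0.056. Near 0 were KARS1 (+0.028), LARS1 (+0.022), FARSA (+0.0084), NARS1 (−0.0097), EPRS1 (−0.016) and CARS1 (−0.030). QARS1, the glutamine enzyme, was at −0.10, and HARS1, the histidine enzyme, at −0.12. FARSA and FARSB encode the 2 subunits of the phenylalanine enzyme. With the arrays quantile normalized FARSA was at −0.0033, and with the arrays centred on their medians EPRS1 and NARS1 were at +0.0048 and +0.011.

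The cytosolic genes were also set apart by further traits. The lists used here were chosen with earlier results on these arrays known. The 13 genes commonly listed as ATF4 targets (AARS1, CARS1, EPRS1, GARS1, IARS1, LARS1, MARS1, NARS1, SARS1, TARS1, VARS1, WARS1 and YARS1) had a median of +0.075, with 9 positive. The other 6 (FARSA, FARSB, HARS1, KARS1, QARS1 and RARS1) had a median of +0.018, with 4 positive. Taken in each array, the median of the 13 genes was between 0.0058 and 0.13 after BATF3 siRNA and between −0.049 and 0.049 after control siRNA, so the ranges overlapped. The 6 genes with the TGATGCAA letters shown above had a median of +0.066, from −0.030 (CARS1) to +0.17 (IARS1), and the 10 cytosolic genes with a promoter and without the letters had +0.042, from −0.12 (HARS1) to +0.13 (GARS1). None of these differences between subsets was tested.

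By structure, synthetases form 2 unrelated families, class I and class II, with different folds of the catalytic domain. The 9 cytosolic class I genes had a median of +0.058 and the 9 class II genes +0.056, while EPRS1, which fuses a class I glutamate enzyme to a class II proline enzyme, was left out of both. The 7 genes here for members of the multi-synthetase complex (EPRS1, IARS1, KARS1, LARS1, MARS1, QARS1 and RARS1) had a median of +0.028, with 5 positive, and the 12 cytosolic genes outside it +0.066, with 8 positive. Between arrays of one siRNA, each of these cytosolic medians had an SD of 0.041 to 0.073. The spread of the gaps between them was not computed, and the gaps were not tested. Among mitochondrial genes the 9 of class I had a median of −0.016 and the 7 of class II +0.031, with SDs of 0.066 and 0.098 between arrays.

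The mitochondrial enzymes had 9 positive and 7 negative differences, a median of +0.022 and a range of −0.13 to +0.16. The median turned negative without control siRNA replicate 1 (−0.024), without control siRNA replicate 3 (−0.015) or without BATF3 siRNA replicate 2 (−0.015), and was 0.065 without control siRNA replicate 2. RARS2, the mitochondrial arginine enzyme, read 9.91, 9.83 and 9.75 after BATF3 siRNA and 9.73, 9.72 and 9.74 after control siRNA. It was the single mitochondrial gene whose groups did not overlap, with a difference of +0.11 (SE 0.086; limma adjusted p = 0.853). The 3 controls lay close together (SD 0.0097), while the BATF3 siRNA arrays were spread more widely (SD 0.080).

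MARS2, the mitochondrial methionine enzyme, read 8.40, 9.00 and 8.55 after BATF3 siRNA and 8.51, 8.49 and 8.47 after control siRNA. Replicate 2 alone stood above the others, the difference was +0.16 (SE 0.14; limma adjusted p = 0.865), and without that array it was −0.012. NARS2, for asparagine, read 8.11, 8.25 and 8.05 against 8.11, 8.14 and 7.93, a difference of +0.077 (limma adjusted p = 0.917).

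VARS2, for valine, read 8.89, 8.72 and 8.48 after BATF3 siRNA and 8.70, 8.93 and 8.84 after control siRNA, a difference of −0.13 (SE 0.12; limma adjusted p = 0.873). TARS2, for threonine, read 8.00, 7.77 and 7.86 against 7.90, 8.12 and 7.94, a difference of −0.11 (limma adjusted p = 0.870). In both genes the 2 groups overlapped. IARS2, for isoleucine, varied least of these, at 10.41, 10.36 and 10.38 against 10.47, 10.40 and 10.43, with a difference of −0.046 (95% interval −0.23 to 0.14; limma adjusted p = 0.943).

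The other 10 mitochondrial genes lay between −0.037 (EARS2) and +0.046 (YARS2). HARS2 was at +0.042, FARS2 and SARS2 both at +0.031, LARS2 at +0.026 and PARS2 at +0.017. AARS2 stood at −0.015, WARS2 at −0.016 and CARS2 at −0.017, and all 3 were just above 0 with the arrays centred on their medians. PARS2, the mitochondrial proline enzyme, lay below the highest background probe set in all 6 arrays, SARS2 was above it in 2 arrays and FARS2 in 3, so the size of these 3 differences is uncertain. All 19 cytosolic genes and the other 13 mitochondrial genes were above it in all 6 arrays.

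**Figure D3:**
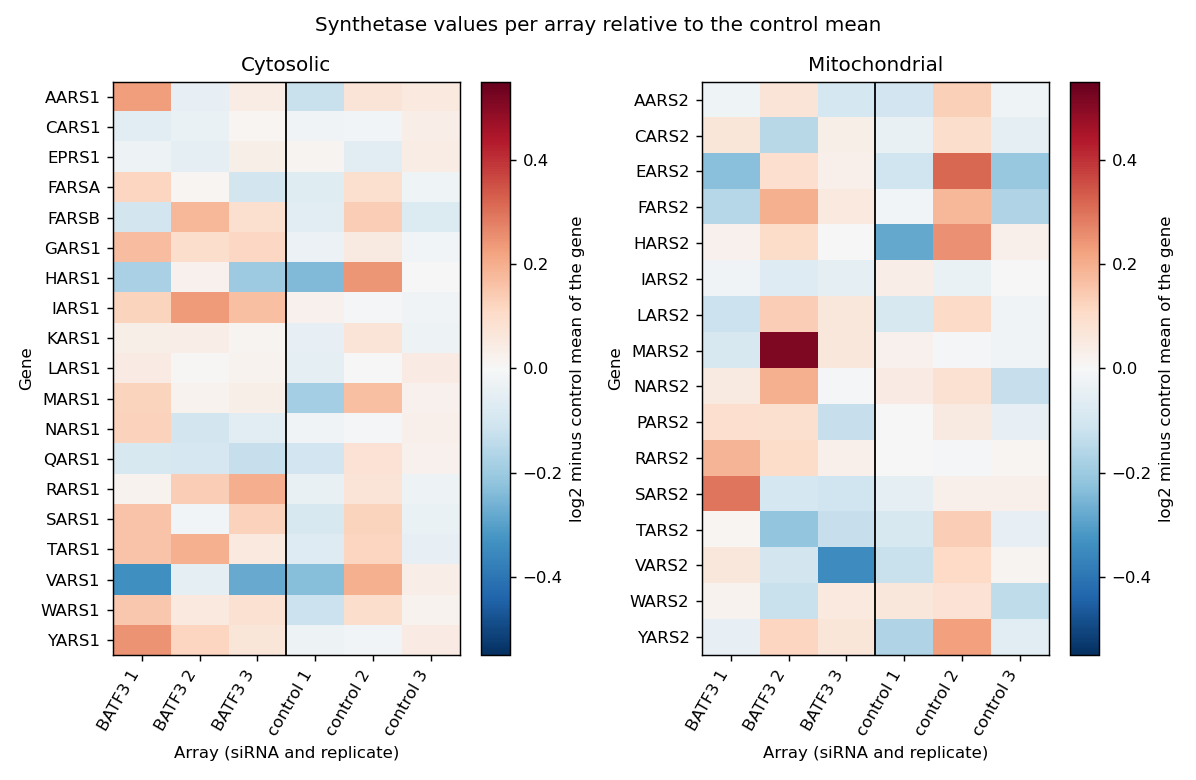
Each cell is the log2 value of one synthetase in one array minus that gene's mean over the 3 control arrays, with BATF3 siRNA arrays left of the line and control arrays right of it. Control siRNA replicate 2 is red in many rows and control siRNA replicate 1 blue, and MARS2 in BATF3 siRNA replicate 2 is the darkest cell.

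The control arrays differed among themselves. Control siRNA replicate 2 held the highest of the 6 values for 8 of the 16 mitochondrial and 5 of the 19 cytosolic genes. BATF3 siRNA replicate 1 held it for 7 of the 19 cytosolic and 3 of the 16 mitochondrial genes. Control siRNA replicate 1 held the lowest value for 11 of the 19 cytosolic genes, while the lowest mitochondrial values were spread over the arrays, with at most 3 of 16 in any array. HARS2, for example, read 8.11 in control siRNA replicate 1 and 8.64 in replicate 2, and its BATF3 siRNA arrays (8.41, 8.49 and 8.39) lay between them. HARS1 did the same, at 9.24 and 9.72 in those 2 controls. Such spread within the controls was wider than the difference between siRNAs for both histidine enzymes.

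Set against each other, the 2 compartments did not part by siRNA. The cytosolic median exceeded the mitochondrial median by 0.035. Array by array, with each gene relative to its control mean, cytosolic minus mitochondrial was 0.10, −0.069 and 0.018 in the BATF3 siRNA arrays and −0.016, −0.030 and 0.055 in the control arrays. The groups overlapped, and the spread between arrays of one siRNA was an SD of 0.069, about the size of the larger values. The size of the gap depended on the processing. It was −0.012 with array weights, 0.012 with quantile normalization and 0.010 with cyclic loess, and larger with the most variable probe set of each gene (0.068). With all probe sets of a gene averaged it was 0.096, from a cytosolic median of 0.077 and a mitochondrial median of −0.018. Without any 1 array the gap lay between 0.0059 (without BATF3 siRNA replicate 1) and 0.061 (without control siRNA replicate 3). Of the BATF3 siRNA arrays, replicate 1, whose background was like that of the controls, had the largest cytosolic median, 0.12, where replicates 2 and 3 had 0.021 and 0.033. Those other 2 arrays alone had the lower background, so a fit with array background as a block compares replicate 1 alone with the controls, and its gap of 0.10 rests on that array.

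Pairs for the same amino acid showed no common order. Of 17 pairings of a mitochondrial gene with its cytosolic counterpart, where EPRS1 was set beside both EARS2 and PARS2 and FARS2 beside both subunits, the cytosolic difference was the larger in 9, and the median gap was 0.013. The widest gaps were for threonine (TARS1 +0.14, TARS2 −0.11) and isoleucine (IARS1 +0.17, IARS2 −0.046). The gap was the other way for histidine (HARS1 −0.12, HARS2 +0.042) and methionine (MARS1 +0.058, MARS2 +0.16). Without BATF3 siRNA replicate 2, however, MARS2 was at −0.012. Both valine enzymes were below 0 and both arginine enzymes above it. Other pairs shared a sign too, among them those for cysteine, leucine, serine and tyrosine. None of these genes passed the test. The gaps within pairs were not tested.

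Other genes of the ATF4 response had a higher median than the synthetases, although none passed the test over all genes. This list came from knowledge of the pathway, with earlier results on these arrays known, and its direction here is therefore no independent evidence. Of its 34 measured genes 0 were called higher and 0 lower, 11 had an unadjusted p under 0.05, all higher (3.73% of all genes were higher at that level), and 30 differences were positive. The median was +0.15, against +0.056 for cytosolic synthetases. In BATF3 siRNA replicate 1 alone, relative to the controls, the medians were 0.26 for this list and 0.12 for the cytosolic synthetases. Of the 34 genes 25 lay above the highest background in all 6 arrays. CTH, an enzyme of cysteine synthesis, read 8.96, 8.71 and 9.01 after BATF3 siRNA and 8.21, 8.09 and 8.28 after control siRNA, a difference of +0.70 (95% interval 0.46 to 0.94; limma adjusted p = 0.193). SLC7A11, which imports cystine in exchange for glutamate, was at +0.48 (limma adjusted p = 0.337), SESN2, a stress sensor that restrains mTORC1, at +0.43 (0.365), and ATF3, a transcription factor induced by stress, at +0.41 (0.418). CTH was named for having the smallest p of its list, so its interval cannot be weighed evenly against those of the synthetases. For the probe sets used, its lower limit, 0.46, lay above the upper limit of every cytosolic synthetase (0.36 for IARS1). It did not lie above that of mitochondrial MARS2 (0.49), and another probe set of NARS1 had a difference of +0.46. The SLC7A11 interval started at 0.26. The difference between these genes was not tested.

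Named after their values were seen, ATF4 itself and the asparagine synthetase ASNS stood in the range of the cytosolic tRNA synthetases. ATF4 read 12.77, 12.74 and 12.77 after BATF3 siRNA and 12.68, 12.68 and 12.70 after control siRNA, so that the groups were apart by a difference of only +0.077 (limma adjusted p = 0.892). ASNS, which makes asparagine and is a standard ATF4 target, was at +0.13 (limma adjusted p = 0.845), with overlapping groups. The amino acid transporter SLC7A1 was at +0.023 and the serine synthesis enzyme PHGDH at +0.033.

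**Figure D4:**
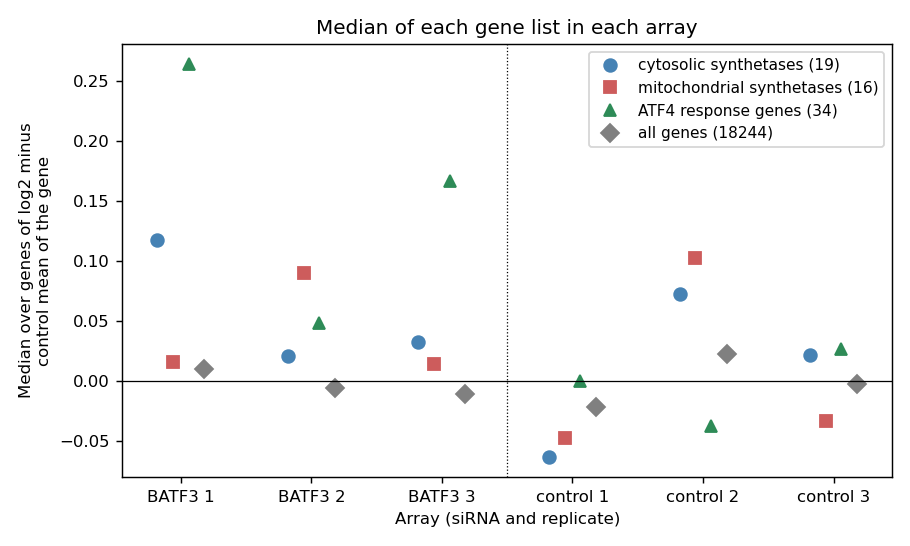
Medians over the genes of a list, in each array, of the log2 value minus the gene's control mean, for cytosolic synthetases, mitochondrial synthetases, ATF4 response genes without synthetases, and all genes. The ATF4 response genes reach 0.26, 0.048 and 0.17 in the 3 BATF3 siRNA arrays, above the 3 controls (−0.038 to 0.027), while both synthetase lists overlap their controls.

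In the branch that sets off ATF4, 0 of 16 genes were called by limma, and 1 had an unadjusted p under 0.05 (7.15% of all genes did). That gene was EIF2AK2, the kinase PKR that responds to double-stranded RNA, at +0.20 (limma adjusted p = 0.689), with groups that did not overlap. PPP1R15B, a subunit of the phosphatase that resets eIF2, was at +0.19 (0.763), the eIF2 subunit gene EIF2S2 at +0.16 (0.785) and the inducible phosphatase subunit PPP1R15A at +0.20 (0.849). EIF2AK4, the sensor of uncharged tRNA, was named after its value was seen and stood at +0.054 (0.954).

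Genes that work beside the cytosolic synthetases gave 0 calls and 0 unadjusted p under 0.05 in limma among 9 measured, with a median of +0.0040. XPOT, the exporter of tRNA from the nucleus, was at +0.24 (limma adjusted p = 0.736) and DTD1, which removes wrongly attached D-amino acids from tRNA, at −0.13 (0.816). AIMP1, a scaffold of the multi-synthetase complex named after its values were seen, was at +0.099 (0.859). EEF1A1, EEF1B2, EEF1D and EEF1G, subunits of the elongation factor that delivers charged tRNA to the ribosome, were read in the same way and lay between +0.0030 and +0.030.

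Partners of the mitochondrial synthetases likewise gave 0 calls and 0 unadjusted p under 0.05 in limma among 20, with a median of +0.0034 and 10 positive. TRMT10C, a subunit of the enzyme that trims mitochondrial tRNA, was at +0.20 (limma adjusted p = 0.701). The initiation factors MTIF2 and MTIF3 were at +0.14 (0.809) and −0.13 (0.842), and MTO1, which modifies mitochondrial tRNA, at +0.11 (0.843). QRSL1, GATB and GATC, which form the enzyme that makes mitochondrial glutamine tRNA without a glutamine synthetase, were read after their values were seen, at +0.051, −0.056 and +0.082.

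WARS1 is also a gene of the interferon gamma response, and 0 of 11 measured genes of that list were called by limma. At an unadjusted limma p under 0.05 there were 3, all higher, a larger share than the 3.73% of all genes. They were IDO1, GBP2 and GBP1. GBP1, named for its level, did not exceed the highest background in any array, and neither did IDO1. Of the 3 only GBP2 was above it in all 6 arrays. The median of the list was +0.14, with 9 positive (49% of all genes were). This list too was chosen with earlier results known, and its direction was not tested. IDO1, which breaks down tryptophan, had the smallest p at +0.57 (limma adjusted p = 0.221), but no array had it above the highest background, so that the size is uncertain. GBP2, an interferon-induced GTPase, was at +0.27 (limma adjusted p = 0.640). WARS1 read 11.02, 10.92 and 10.95 after BATF3 siRNA and 10.75, 10.96 and 10.89 after control siRNA, with overlapping groups.

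Different probe sets of a synthetase did not always give one sign. The 35 genes had 88 probe sets. Of the 27 genes with more than one, 9 had all probe sets positive (AARS1, GARS1, HARS2, IARS1, LARS1, MARS1, RARS1, TARS1 and WARS1), 6 had all negative (EPRS1, QARS1, AARS2, CARS2, EARS2 and VARS2) and 12 had both. In a test of each probe set 0 of the 88 passed an adjusted p of 0.05 (0.0101% of all probe sets did) and 6 had an unadjusted p under 0.05 (6.82%, against 7.17% of all probe sets). Of these 6 probe sets 5 were higher and belonged to IARS1, MARS1, NARS1 (a pair) and WARS1, and none was the probe set that stood for its gene.

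NARS1 was the cytosolic gene with the widest disagreement. The brightest of its 4 probe sets was at −0.0097, and the others were at +0.27, +0.090 and +0.46. The last of these read 8.75, 9.23 and 9.19 after BATF3 siRNA and 8.60, 8.60 and 8.59 after control siRNA, with the groups apart (limma adjusted p = 0.546 over all probe sets). All 5 probe sets of MARS1 were positive, from +0.058 in the brightest to +0.34. The used probe set of MARS2 was at +0.16, and its other 2 probe sets were both below 0, the lower at −0.077. A second probe set of SARS2 was at −0.58 (limma adjusted p = 0.506), with readings of 3.87 to 4.85 that lay under the highest background in all 6 arrays.

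**Figure D5:**
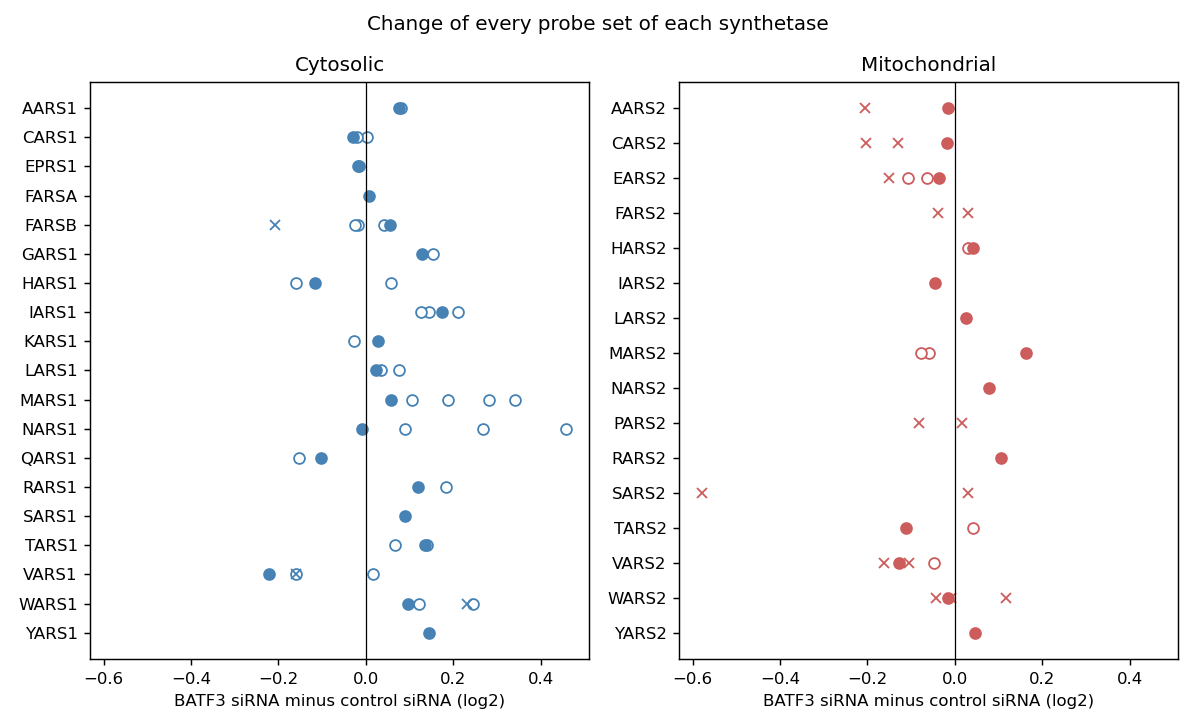
Log2 difference (BATF3 siRNA minus control siRNA) of each of the 88 probe sets, by gene. Filled circles are the probe sets used for the gene, open circles other probe sets, and crosses probe sets, used or not, that lay at or under the highest background probe set in at least one array. NARS1 spreads from −0.0097 to 0.46 and SARS2 from −0.58 to 0.031.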

How the data were processed

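The deposited table gave one log2 value per probe set and array. The log base is not stated and was taken from the size of the values. Per the submitters' processing notes the authors used the affy package for R; its version and the normalization were not given in the sources used here. Values were used as deposited. Of 49495 probe sets 202 were controls, 45278 had 1 gene, 1333 several and 2682 none in the platform annotation. The siRNAs were compared over the 6 arrays by a two-sided moderated test (limma 3.58.1, R 4.3.3, 9.30 total degrees of freedom) and adjusted by Benjamini-Hochberg over 18244 genes. The number of arrays limits the precision; the median SE of a difference was 0.107. An exact permutation test of 3 arrays against 3 cannot give a p below 0.1.

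Members and lists were chosen with earlier results of these data known. Arrays were given in full for members whose groups did not overlap and for the 6 cytosolic and 6 mitochondrial members with the smallest p. From the other lists the 4 genes (2 for lists under 13) with the smallest p were named. The markers of T and NK cells, myeloid cells, stroma and epithelium were an exception, where only CD68 was named, for its level. GPT2, AIMP2, EEF1E1 and GFM2 were not analysed here. A list is described by its counts and median, with no test. Some genes are on more than 1 list: XPOT and PPP1R15A were also counted among the ATF4 response genes, and TRNT1 in both lists of partners.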

Additional observations from a re-analysis of the deposited data

How the results depend on the processing

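In all 559 alternative values of the 35 synthetases 0 passed an adjusted p of 0.05 (smallest 0.201), and 11 genes kept their sign in every setting. The count of all genes called was 9 without dim genes, 5 with the most variable probe set, 25 with array weights, 12 with an intensity trend and robust prior, 6 at an adjusted p of 0.1, 0 with array background as a block (1011 at an unadjusted p under 0.05), and 0 to 2 without any 1 array; 0 synthetases were among them. The background block leaves BATF3 siRNA replicate 1 alone against the controls, and its ATF4 list median of 0.26 rests on that array. With the replicate number as a block 3 genes and 0 synthetases passed, against 3 and 0 without it. Same-numbered arrays correlated at 0.029, 0.15 and −0.026 in their deviations from the group means. The labels name no pairing, and correlations of so few arrays cannot decide whether same-numbered arrays were paired.

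The sign turned for FARSA under quantile normalization (−0.0033) and cyclic loess (−0.0031). Under median centring it turned for EPRS1 (0.0048), NARS1 (0.011), AARS2 (0.0062), CARS2 (0.0038) and WARS2 (0.0046). With the mean of probe sets it turned for FARSB (−0.031), NARS1 (0.20), FARS2 (−0.0042), PARS2 (−0.032), SARS2 (−0.27) and WARS2 (0.012). With the most variable probe set it turned for CARS1 (0.0033), FARSB (−0.21), KARS1 (−0.026), NARS1 (0.46), VARS1 (0.017), PARS2 (−0.082), SARS2 (−0.58) and TARS2 (0.043). Array weights turned LARS1 (−0.0080), AARS2 (0.0066), CARS2 (0.013), EARS2 (0.15), SARS2 (−0.039) and WARS2 (0.070). The background block turned FARSB (−0.10), NARS1 (0.13), CARS2 (0.068), FARS2 (−0.16), LARS2 (−0.12), MARS2 (−0.088), TARS2 (0.011), VARS2 (0.062), WARS2 (0.021) and YARS2 (−0.046). Without any 1 array the ranges that crossed 0 were those of AARS1 (−0.0026 to 0.14), AARS2 (−0.068 to 0.050), CARS2 (−0.060 to 0.050), EARS2 (−0.14 to 0.12), EPRS1 (−0.044 to 0.0038), FARS2 (−0.052 to 0.12), FARSA (−0.046 to 0.063), FARSB (−0.0071 to 0.14), HARS1 (−0.24 to 0.0044), HARS2 (−0.098 to 0.17), LARS1 (−0.0022 to 0.046), LARS2 (−0.029 to 0.099), MARS1 (−0.037 to 0.14), MARS2 (−0.012 to 0.29), NARS1 (−0.078 to 0.035), PARS2 (−0.019 to 0.089), SARS2 (−0.10 to 0.10), WARS2 (−0.086 to 0.037) and YARS2 (−0.037 to 0.16). The cause of these turns was not tested. PARS2 had no value without dim genes.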
